A study of Mus musculus with 15 samples.

Results

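Neuropeptide Y (NPY) and its receptors were followed in mouse olfactory bulbs in which signalling through CRHR1, the receptor for the stress peptide corticotropin-releasing hormone (CRH), had been lowered or raised. The members were every array probe whose gene name in the scanner files is Npy, Npy1r, Npy2r or Npy5r, which gave 5 of the 55681 probes and 4 of the 46751 genes and unnamed loci on the array. Npy, Npy1r and Npy5r had 1 probe each and Npy2r had 2. NPY is among the most abundant peptides of the brain. It is cut from a precursor, amidated at its end, stored in dense core vesicles and released by neurons, and it acts on receptors that couple to the Gi/o proteins and lower cyclic AMP. Y1 (gene Npy1r) and Y5 (Npy5r) sit mainly on receiving cells, whereas Y2 (Npy2r) is best known as a presynaptic receptor that restrains transmitter release. In the bulb NPY is made by short-axon interneurons and by olfactory ensheathing glia, the glia that wrap the incoming olfactory axons.

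The 15 male mice, aged 6 to 8 weeks, formed 3 groups of 5, and each bulb RNA was measured on its own array 2 weeks after 500 nL of an adeno-associated virus had been injected. In every group the virus carried a FLEX cargo, which is expressed only in cells with Cre recombinase. Knockout mice (CRHR1-/-; strain 129S4/SvJae) received the GFP virus and stand for low CRH signalling. Cre GFP mice (CRHR1-Cre; C57Bl/6) received the same virus and stood in for wild type. Active CRHR1 mice (CRHR1-Cre; C57Bl/6) received instead the cargo labelled (CA)CRHR1, a receptor variant that is always switched on, and stand for high signalling. The labels place the viral cargo of the Cre mice in CRHR1-positive granule cells, while the RNA came from the whole bulb. Wherever the knockout group is compared, the receptor's loss, the strain and the presence of Cre cannot be told apart.

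All 5 knockout arrays were on slide 1 together with Cre GFP arrays 1 to 3. The other 2 Cre GFP arrays shared slide 2 with all 5 of the active CRHR1 group, so that slide and group were partly joined. The knockout and active CRHR1 groups shared no slide, so between them slide and group were wholly joined. A slide block there draws only on the Cre GFP arrays, 3 on slide 1 and 2 on slide 2. A level is the log2 signal less the 75th percentile of its own array, and group means carry ± SD (n = 5). A change is a difference of such means, given as log2 change ± SE with limma's p adjusted over all 27438 genes tested, and it passed at an adjusted p under 0.05. Arrays had a 75th percentile of 664 to 1171 scanner units, and the share of probes well above background ran from 58.7% to 66.9%. Within groups an array correlated on average at 0.985 to 0.992 with its fellows. Crhr1 itself was 0.47 lower in the knockout than in the Cre GFP group (adjusted p = 0.0140 in limma). In the active CRHR1 group it differed from Cre GFP by 0.09 ± 0.09 and did not pass (adjusted p = 0.547). Whether the probe also reads the viral transcript and where it lies relative to the deleted part were not determined. All 9 genes listed for granule cells and other bulb interneurons and all 6 listed for mitral and tufted cells were well above background on all 15 arrays. Of 8 genes of cortical and anterior olfactory neurons 6 were tested. In whole tissue, fewer cells of a type and less RNA per cell cannot be told apart.

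The probe that reads Npy is shown because its sequence falls in the coding part of the transcript, over the end of the mature peptide. The capitals mark the codons for the glycine that donates the amide and for the pair of basic residues at which the precursor is cut.
Npy probe A_51_P454873: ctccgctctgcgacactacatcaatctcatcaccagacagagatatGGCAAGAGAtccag
This 60-base probe spans chr6:49773743-49777505 on the plus strand of mm9, a stretch of 3763 bases, so that it crosses a splice junction. It reports the precursor transcript, not the processed peptide. The Npy1r probe lies at chr8:69230632-69230691 on the plus strand and the Npy5r probe at chr8:69204446-69204505 on the minus strand, the genes being neighbours that run in opposite directions. The Npy2r probes lie at chr3:82342675-82342734 (probe 1) and chr3:82343900-82343959 (probe 2), both on the minus strand of mm9.

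All 5 probes were measured on all arrays with no spot flagged, but not all were detected. Npy, Npy1r and Npy5r were well above background on 15 of 15 arrays. Npy2r probe 1 was so on 6 arrays and Npy2r probe 2 on 0. A probe entered the fit if it was well above background on at least 4 arrays of any group, which 4 of the 5 probes met. Npy2r probe 1 met it through the knockout group alone, where its mean was highest. Each gene was therefore tested through 1 probe, and Npy2r probe 2 was fitted only without the filter.

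**Figure D1:**
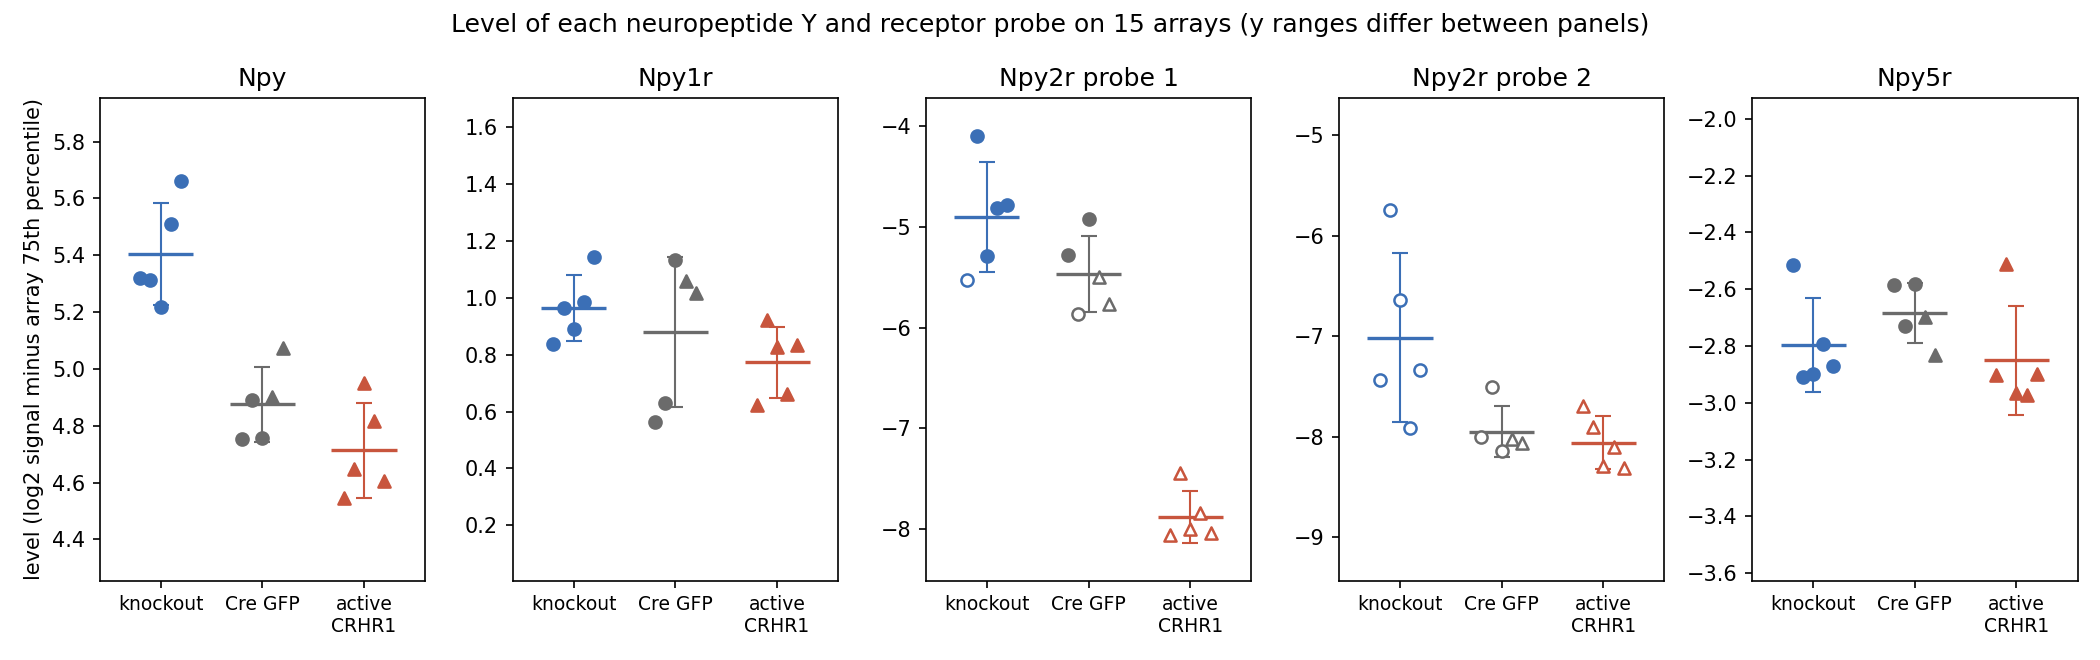
Level of each probe (log2 signal minus the array's 75th percentile) on the 15 arrays, by group; circles are slide 1 and triangles slide 2, filled points are well above background and open points are not, and lines and bars are mean ± SD (n = 5). The 5 knockout arrays lie above all others for Npy, and the 5 active CRHR1 arrays lie below all others for Npy2r probe 1, where none of them is filled.

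Npy, the ligand gene, was higher in the knockout bulbs than in both Cre groups. Its levels were 5.32, 5.31, 5.22, 5.51 and 5.66 on knockout arrays 1 to 5. On Cre GFP arrays 1 to 5 they were 4.75, 4.89, 4.76, 4.90 and 5.07, and on active CRHR1 arrays 1 to 5 they were 4.55, 4.65, 4.95, 4.82 and 4.61. The lowest knockout array lay above the highest array of either other group, whereas the Cre GFP and active CRHR1 arrays overlapped. Means of the knockout, Cre GFP and active CRHR1 groups were 5.40 ± 0.18, 4.88 ± 0.13 and 4.71 ± 0.17. Npy rose by 0.53 ± 0.10 in the knockout against Cre GFP, or 1.44-fold with a 95% interval from 1.24 to 1.68 (limma adjusted p = 0.0135; exact two-sided permutation p = 0.00794, the smallest that 5 arrays against 5 can give).

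The size of the Npy difference was similar under other settings, but its call was not always kept. A slide block gave 0.60 (limma adjusted p = 0.0224), as did slide 1 arrays alone, where the call was lost (adjusted p = 0.0891). With arrays centred on their median it was 0.47 (adjusted p = 0.126), as in the authors' scaled values (adjusted p = 0.112). Omitting knockout arrays 2 and 5, a choice made with the data known, again gave 0.47 (adjusted p = 0.0620). Leaving out any 1 of the 15 arrays gave 0.46 to 0.58, with every adjusted p at 0.0395 or lower in limma.

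The scaling of the arrays bears on these levels, since the 75th percentile was 664 to 961 in the knockout, 826 to 1034 in the Cre GFP and 921 to 1171 in the active group. Before any scaling the Npy signal was 33642 to 35736 scanner units on the knockout arrays, 24522 to 31486 on the Cre GFP arrays and 24827 to 29582 on the active CRHR1 arrays. The knockout arrays thus stood above the others without scaling too, but the size of the difference was not fitted without scaling. How much of the scaled difference comes from the lower 75th percentiles of the knockout arrays was not tested. In the Cre GFP group the unscaled signal followed the slide, with 24522 to 26468 on slide 1 and 30940 and 31486 on slide 2, and the part of the slide in the spread of Npy was not tested further. Within groups the Npy level ran against the log2 75th percentile of its array (Pearson r = -0.75 over 15 deviations from group means, a description).

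Active CRHR1 bulbs did not differ detectably from Cre GFP bulbs in Npy. The change was -0.16 ± 0.10 (limma adjusted p = 0.315) with a 95% interval of the log2 change from -0.38 to 0.06. The slide block gave -0.28 (adjusted p = 0.230). Against the knockout group Npy was lower by 0.69 in the active CRHR1 group (-0.69 ± 0.10, limma adjusted p = 0.000766; with the slide block -0.88, adjusted p = 0.0257). In order of level the knockout group thus came first, and the remaining groups did not differ beyond their spread. The comparisons of the knockout and of the active CRHR1 group with Cre GFP share the Cre GFP arrays.

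Npy1r, the gene of the Y1 receptor, showed no difference that passed in any comparison. Its levels were 0.84, 0.97, 0.89, 0.99 and 1.15 on knockout arrays 1 to 5, and 0.62, 0.92, 0.83, 0.66 and 0.83 on active CRHR1 arrays 1 to 5. The Cre GFP arrays spanned both ranges, with arrays 1 and 2 at 0.56 and 0.63 and arrays 3 to 5 at 1.13, 1.06 and 1.02. Its 3 slide 1 arrays had a mean of 0.77 and its 2 slide 2 arrays a mean of 1.04. Means were 0.97 ± 0.12 in the knockout, 0.88 ± 0.26 in Cre GFP and 0.77 ± 0.13 with active CRHR1. The change was 0.08 ± 0.11 for knockout against Cre GFP (limma adjusted p = 0.718) with a 95% interval from -0.16 to 0.33, and it was -0.037 with array weights. For active CRHR1 against Cre GFP it was -0.11 ± 0.11 (adjusted p = 0.563, interval -0.35 to 0.14). Between active CRHR1 and knockout it was -0.19 ± 0.11 (adjusted p = 0.211), and the exact permutation test of this gene alone gave p = 0.0397, not corrected for the 12 such tests run. The slide block moved these changes to 0.19, -0.27 and -0.46 (limma adjusted p = 0.469, 0.271 and 0.177), none of which passed, and the part of the slide was not tested further.

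Npy2r, the gene of the Y2 receptor, was near the detection limit and was lowest in the active CRHR1 group. On probe 1 its levels were -5.53, -4.10, -5.28, -4.81 and -4.78 on knockout arrays 1 to 5, and -5.28, -5.86, -4.92, -5.50 and -5.76 on Cre GFP arrays 1 to 5. On active CRHR1 arrays 1 to 5 they were -8.06, -7.45, -8.00, -7.84 and -8.04. Every active CRHR1 array lay more than 1 unit below every other array, while the knockout and Cre GFP arrays overlapped. The probe was well above background on knockout arrays 2 to 5, on Cre GFP arrays 1 and 3 and on 0 active CRHR1 arrays.

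The processed signals show how dim this probe was. They were 19.1 to 49.95 scanner units in the knockout, 14.2 to 32.3 in Cre GFP and 3.73 to 6.04 with active CRHR1, whereas the dimmest probe called well above background on any array had 12.5 to 19.3 units. Signals of the active CRHR1 arrays thus lay wholly below that limit, and their values have no reliable size. Probe 1 changed with active CRHR1 by -2.41 ± 0.24 against Cre GFP (limma adjusted p = 0.000174) and by -2.98 ± 0.24 against the knockout (adjusted p = 1.39e-05). These p-values are for the measured means, signals below background included. Since the probe was kept only through its brightest group, the fit without a filter is given as well, with adjusted p = 0.000499 and 4.64e-05 in limma. The lowest level called well above background had a mean of -6.02 over the active CRHR1 arrays. Set against it, the Cre GFP mean of -5.46 was 1.47-fold higher and the knockout mean of -4.90 was 2.17-fold higher. Neither fold is a strict lower bound. On knockout array 1 and Cre GFP arrays 4 and 5 probe 1 lay above the array's own lowest such level and was still not called. Only 2 of 5 Cre GFP arrays were themselves well above background.

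**Figure D2:**
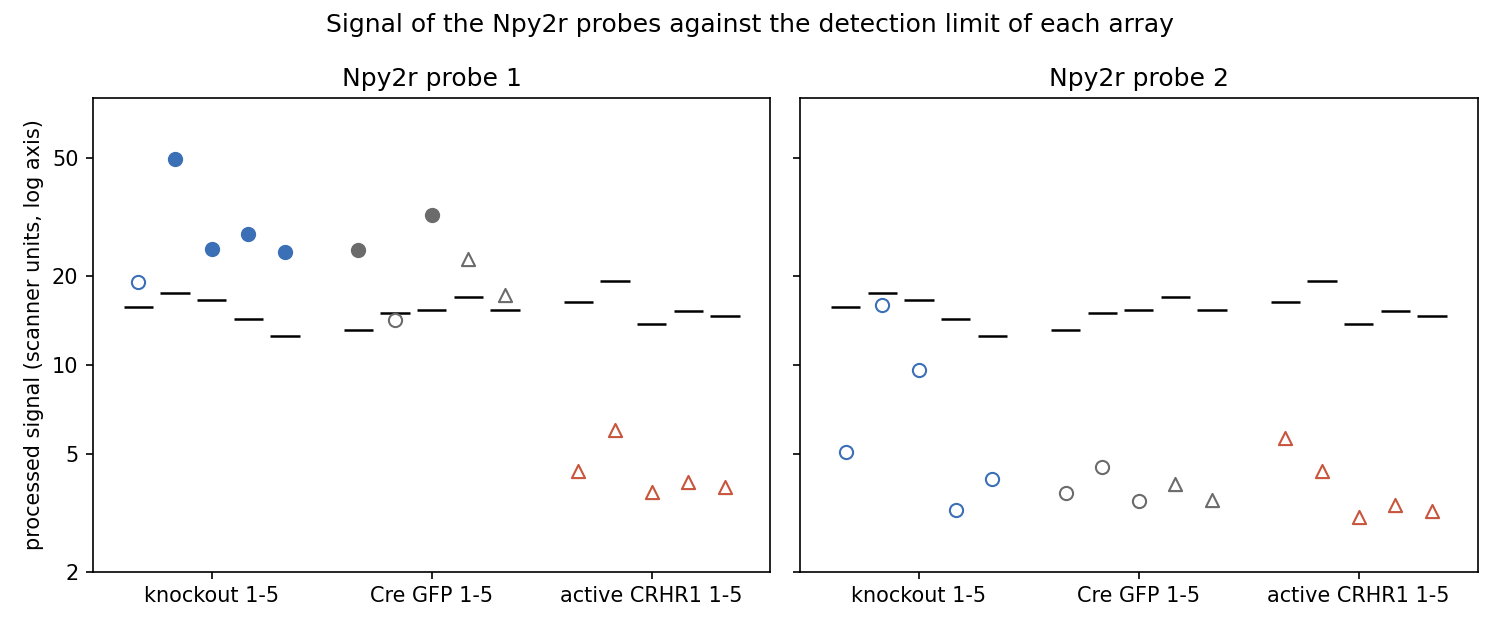
Processed signal of both Npy2r probes on each array (scanner units, log axis); short black lines mark the lowest signal of any probe called well above background on that array, filled points are well above background, circles are slide 1 and triangles slide 2. For probe 1 the active CRHR1 arrays lie between 3.73 and 6.04 units, all below their lines, and no point of probe 2 is filled.

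On slide 2 no array of either group was well above background for probe 1, so the comparison within that slide, 5 arrays against 2, is one between undetected signals and gives no measurement of the gene. Its difference was -2.25 (limma adjusted p = 0.0179), as with the slide block (adjusted p = 0.00304), and slide was therefore not separated from group at a detected level. Over both slides, with any 1 array left out, the change of probe 1 against Cre GFP lay between -2.52 and -2.28. With a normexp background correction and an offset of 50, which draws dim signals together, it was -0.39 (adjusted p = 0.0346). Probe 2, well above background on 0 arrays, showed a difference of -0.11 ± 0.32 against Cre GFP (limma over all 55681 probes, adjusted p = 0.904). With levels from -8.32 to -5.74 over the 15 arrays it gives no measurement of the gene.

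Between knockout and Cre GFP, Npy2r did not pass. The change was 0.56 ± 0.24 (limma adjusted p = 0.219), with a 95% interval from 0.04 to 1.09 that takes no account of the number of genes tested. The exact two-sided permutation p was 0.103. Leaving out knockout array 2, the brightest, gave the lowest difference of the 15 omissions, 0.36. The order of the means was knockout (-4.90 ± 0.55), Cre GFP (-5.46 ± 0.38) and active CRHR1 (-7.88 ± 0.26), of which the first 2 did not differ beyond their spread.

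Npy5r, the gene of the Y5 receptor, did not pass in any comparison. Its levels were -2.51, -2.91, -2.90, -2.79 and -2.87 on knockout arrays 1 to 5, and -2.59, -2.73, -2.58, -2.70 and -2.83 on Cre GFP arrays 1 to 5. On active CRHR1 arrays 1 to 5 they were -2.90, -2.51, -2.97, -2.97 and -2.90. The 3 groups overlapped, with knockout array 1 and active CRHR1 array 2 the highest of their groups. Means were -2.80 ± 0.16, -2.69 ± 0.11 and -2.85 ± 0.19. The changes against Cre GFP were -0.11 ± 0.10 in the knockout (limma adjusted p = 0.567, 95% interval -0.33 to 0.10) and -0.16 ± 0.10 with active CRHR1 (adjusted p = 0.304, interval -0.38 to 0.05). Between active CRHR1 and knockout the change was -0.05 ± 0.10 (adjusted p = 0.716), and the slide block turned it to 0.081 (adjusted p = 0.790). Without knockout array 1 it was 0.018.

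**Figure D3:**
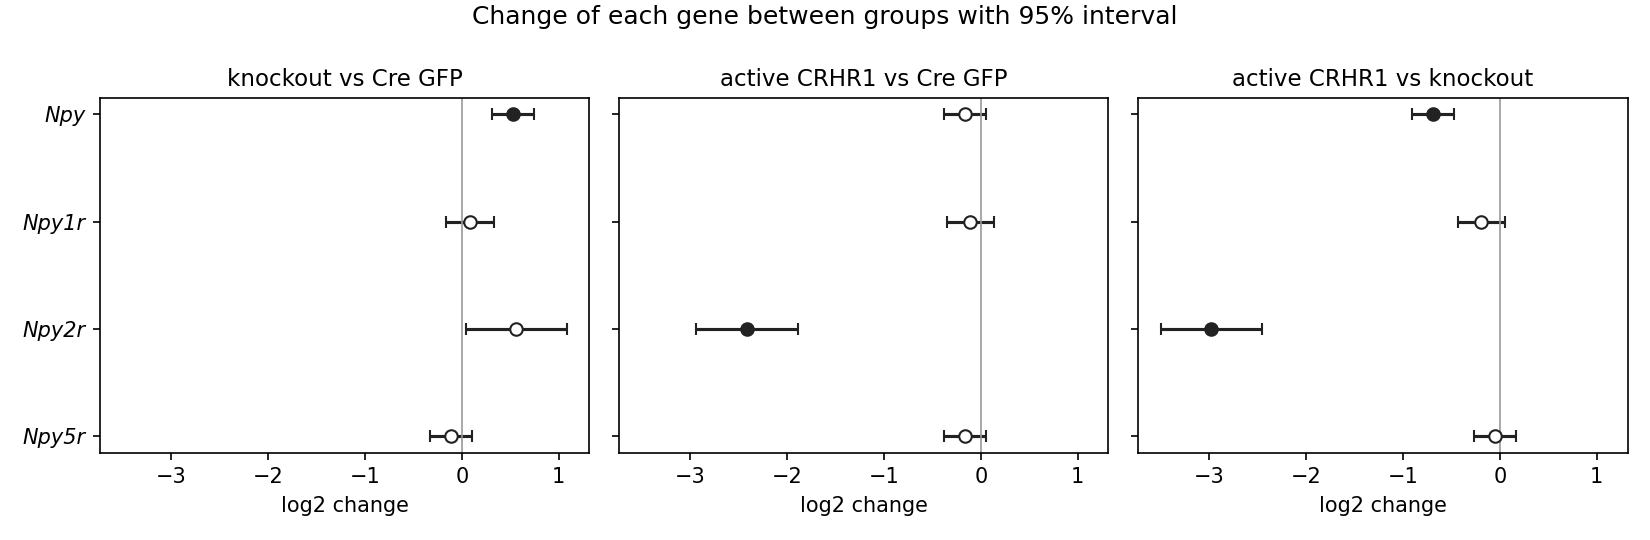
Log2 change of each gene in the 3 comparisons; points are differences of group means, bars are 95% intervals from limma, and filled points passed at an adjusted p under 0.05. Npy passed in both comparisons with the knockout group and Npy2r in both with the active CRHR1 group. The plotted size of Npy2r there rests on signals below background and is not reliable. Npy1r and Npy5r lie near 0 throughout.

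Of the 4 genes 1, Npy, passed for knockout against Cre GFP, where 3.38% of all genes tested did (1.95% higher and 1.43% lower). For active CRHR1 against Cre GFP 1 passed, Npy2r, beside 8.52% of all genes (3.89% higher and 4.64% lower). For active CRHR1 against knockout 2 passed, Npy and Npy2r, beside 25.7% (9.44% higher and 16.3% lower). The arrays of the groups did not overlap for 5.54%, 10.5% and 18.7% of all genes in these comparisons. With median centring the calls over all genes were 134 higher and 270 lower, 714 and 559, and 2064 and 2221, in place of 536 and 391, 1066 and 1273, and 2589 and 4473. Npy2r met the filter only through the group where it was brightest, so these counts carry no weight for the family.

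Among genes tested with a symbol, those most like Npy over the 15 arrays were Proca1 (Pearson r = 0.977), Tmem160 (0.967) and Myh15 (0.964). Their r over deviations from group means was 0.959, 0.891 and 0.945, and the arrays' scaling is shared by all of them. Most like Npy1r were Zfp644 (0.920), Usp6nl (0.914) and Elovl6 (0.913), and most like Npy5r were Tmod1 (0.874), Pde9a (0.840) and Tmem129 (0.822). For Npy2r they were Anp32e (0.952), Lratd1 (0.950) and Abhd17b (0.949), whose r within groups was only 0.417, 0.383 and 0.445. All are descriptions, each the highest of 16551 genes.

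The remaining peptides and receptors of the family could not be compared. Pyy (peptide YY), Ppy (pancreatic polypeptide), Npy4r (the Y4 receptor) and Npy6r were all on the array. They were well above background on 4, 0, 1 and 0 of the 15 arrays, and none met the filter.

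Of the enzymes that make and trim NPY, 1 passed against Cre GFP, in the active CRHR1 group, beside 8.52% of all genes tested. All 5 listed genes were tested: the convertases Pcsk1 and Pcsk2, the carboxypeptidase Cpe, the amidating enzyme Pam and Dpp4, the peptidase that turns NPY into a form favoured by Y2. Against Cre GFP 0 passed in the knockout (1 at an unadjusted p under 0.05 in limma; median change 0.08, beside 0.0037 over all genes), and Pam had a change of 0.74 ± 0.39 there (adjusted p = 0.301). With active CRHR1 1 fell, Pcsk2 by 0.29 ± 0.08 (limma adjusted p = 0.0314; median -0.23, beside -0.07 over all genes). That call was lost in 6 of the 15 omissions, those of Cre GFP arrays 2, 4 and 5 and active CRHR1 arrays 1, 3 and 5 (adjusted p up to 0.0869), and with the slide block (-0.31, adjusted p = 0.111). Median centring ended the Pcsk2 call as well (-0.38, limma adjusted p = 0.0809). Between active CRHR1 and knockout Cpe (-0.31 ± 0.09, limma adjusted p = 0.0269) and Pam (-1.19 ± 0.39, adjusted p = 0.0379) were lower, beside 16.3% of all genes. The Cpe call was lost without knockout array 4 or active CRHR1 array 1 or 5, the Pam call without knockout array 1, 2 or 5 or active CRHR1 array 1 or 5 (adjusted p up to 0.0667 and 0.0937), and both with the slide block. With median centring Cpe did not pass (limma adjusted p = 0.0886), while Pam did (adjusted p = 0.0391).

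Downstream of the receptors, the Gi/o subunits and the potassium channels that they open were lower in part of the list with active CRHR1. Of 8 genes tested 3 fell against Cre GFP and 0 rose (median -0.20, beside -0.07 over all genes), where 4.64% of all genes fell. Kcnj3 fell by 0.34 ± 0.08 (limma adjusted p = 0.0146), Gnai1 by 0.28 ± 0.07 and Gnaz by 0.26 ± 0.07. The fall of Kcnj3, which encodes a subunit of these channels, was kept in all 15 omissions and with median centring, but not with the slide block (-0.31, adjusted p = 0.119). The call of Gnai1 was lost without any 1 of Cre GFP arrays 2 to 5 or active CRHR1 arrays 1, 3 and 5 (adjusted p up to 0.0744). That of Gnaz was lost in the same omissions and in those of knockout array 2 and active CRHR1 array 4 (up to 0.0983). With median centring neither Gnai1 nor Gnaz passed (limma adjusted p = 0.0841 and 0.0785). With 1 array left out the list held 1 to 4 falls, and with the slide block 1 passed, Gnaz (-0.36, adjusted p = 0.0497). In the knockout limma called 0 of 8, with 1 at an unadjusted p under 0.05 (median -0.02).

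Genes of dense core vesicles, in which NPY is stored, were not raised with Npy in the knockout. Of 7 tested 2 fell against Cre GFP and 0 rose (median -0.11, beside 0.0037 over all genes), where 1.43% of all genes fell. These were the granin genes Vgf, by 0.49 ± 0.13 (limma adjusted p = 0.0490), and Scg2, by 0.42 ± 0.10 (adjusted p = 0.0364). The Vgf call was kept only when knockout array 5 or Cre GFP array 1 was the one left out, and the Scg2 call only without knockout array 5, Cre GFP array 1 or active CRHR1 array 2, 4 or 5 (adjusted p otherwise up to 0.120 and 0.0923). Both were lost with the slide block and with median centring. With active CRHR1 limma called 0 of 7, although 4 had an unadjusted p under 0.05 (median -0.17, beside -0.07 over all genes).

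**Figure D4:**
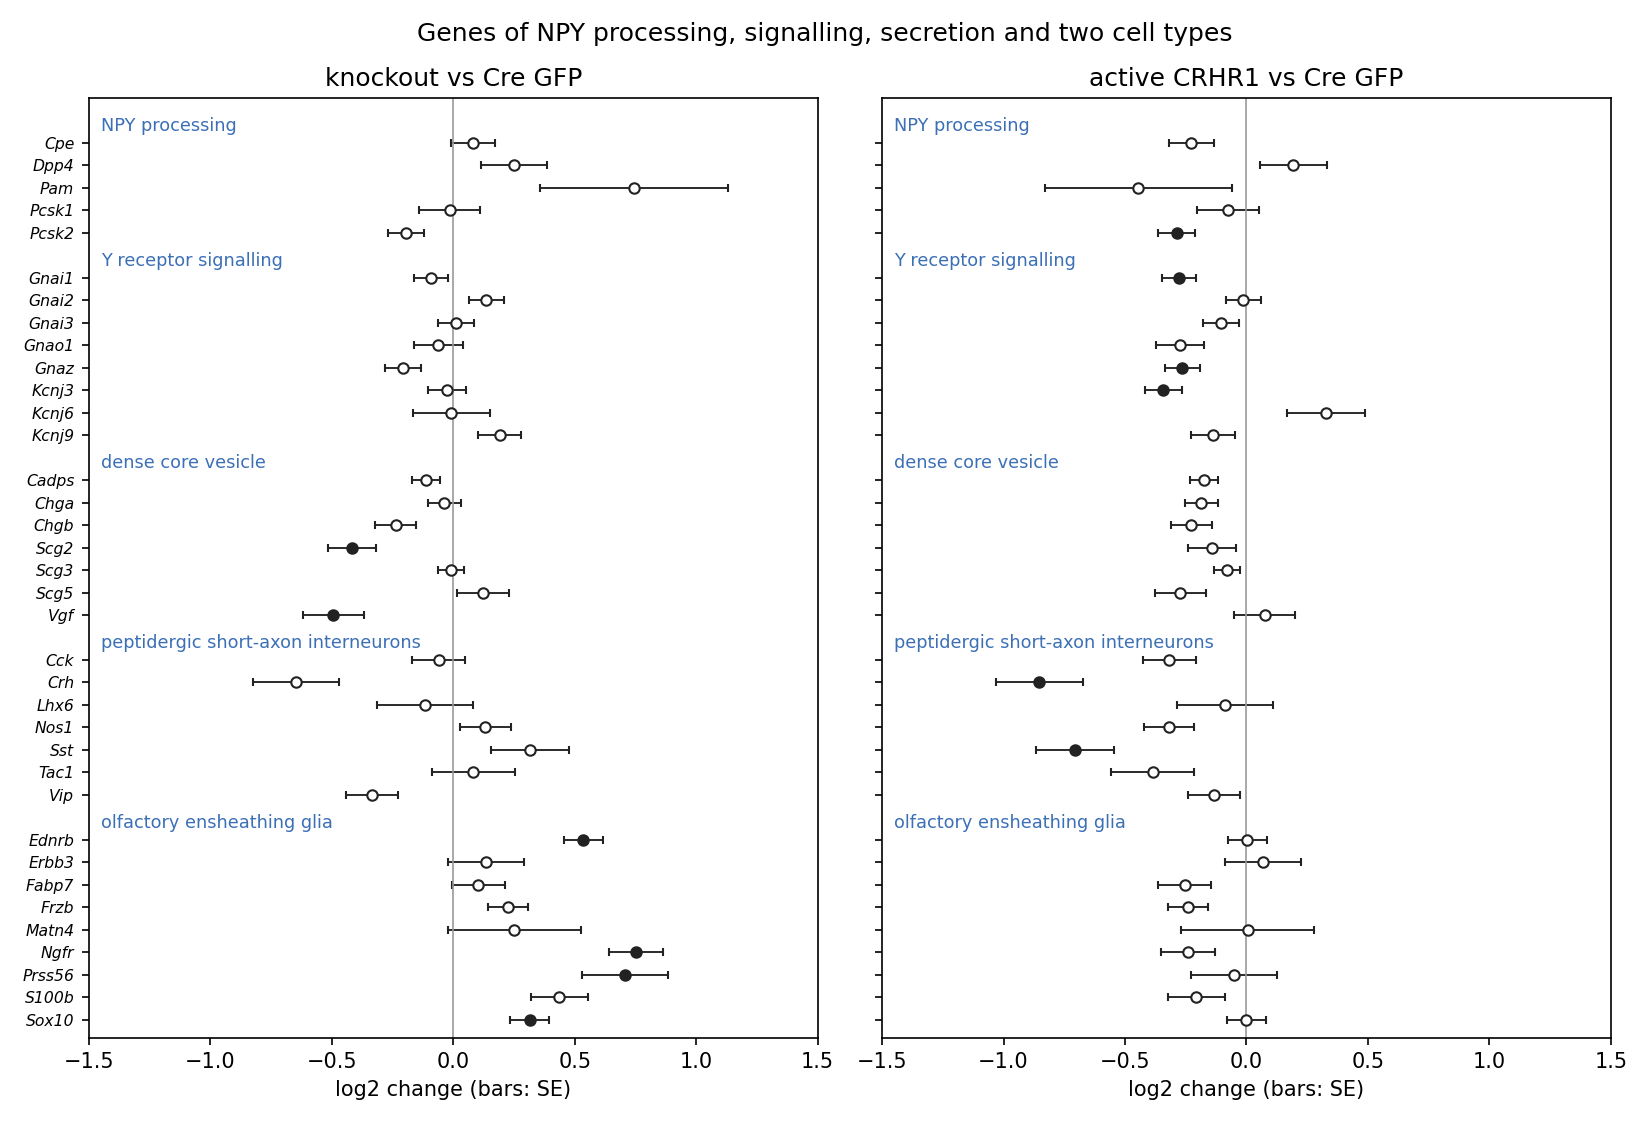
Log2 change against Cre GFP of the genes of 5 lists, without 1 glial gene, in the knockout (left) and with active CRHR1 (right); points are differences of group means, bars are SE (limma, 15 arrays) and filled points passed at an adjusted p under 0.05. In the knockout the filled points are 4 ensheathing glia genes to the right and Vgf and Scg2 to the left; with active CRHR1 all 6 filled points lie to the left, Crh and Sst farthest.

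Markers of the ensheathing glia, one source of NPY, were in part higher in the knockout, where 1.95% of all genes tested were higher. Of 10 ensheathing glia genes 4 rose and 0 fell in the knockout against Cre GFP (median 0.30, beside 0.0037 over all genes): the neurotrophin receptor gene Ngfr by 0.75 ± 0.11, the protease gene Prss56 by 0.71 ± 0.18, the endothelin receptor gene Ednrb by 0.53 ± 0.08 and the transcription factor gene Sox10 by 0.31 ± 0.08. All 10 were well above background on all 15 arrays, and their summed level, in multiples of the 75th percentile, was 286 to 354 on the knockout arrays, 234 to 280 on the Cre GFP and 206 to 239 on the active CRHR1 arrays. The knockout arrays were highest in this sum and in Npy, while the Cre GFP and active CRHR1 arrays overlapped in both. The genes that rose add little to the sum, with Cre GFP mean levels of 0.14 (Ngfr), 0.59 (Prss56), 1.43 (Ednrb) and 2.99 (Sox10). Fabp7, at 6.47, adds far more and did not pass in the knockout (limma adjusted p = 0.633). The part of these glia in the Npy result was not tested. Ngfr and Ednrb kept their calls in all 15 omissions, with the slide block and with median centring. Prss56 kept its call only without knockout array 3, Cre GFP array 5 or active CRHR1 array 1, 2 or 5, and Sox10 only without knockout array 3 or active CRHR1 array 5 (limma adjusted p otherwise up to 0.0986 and 0.115). Both lost it with the block and with median centring, so that 2 to 4 genes of the list rose across the omissions.

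With active CRHR1 the glial list had a median change of -0.13 against Cre GFP, beside -0.07 over all genes, and 0 rose in limma (4 had an unadjusted p under 0.05, in either direction). Against the knockout 8 of 10 were lower (median -0.50, beside -0.07 over all genes), or 7 to 8 with 1 array left out. In that comparison 16.3% of all genes tested were lower. Ngfr (-1.04, adjusted p = 0.0238) and Frzb, a secreted Wnt antagonist gene (-0.66, adjusted p = 0.0298), were among those that stayed lower with the slide block.

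Interneurons that use peptides or nitric oxide include the short-axon cells that make NPY. Of 7 genes listed for them 0 passed in the knockout in limma (2 at an unadjusted p under 0.05, median -0.06). Their summed level was 161 to 215 in the knockout and 158 to 210 in the Cre GFP group. That sum mostly follows Cck, the highest of the list with a mean level of 7.40 in Cre GFP. Crh came next at 2.43, so the sum says little of the other genes. Cck had a change of -0.32 ± 0.11 with active CRHR1 against Cre GFP (limma adjusted p = 0.0833). With active CRHR1 the sum was 125 to 163 and 2 genes fell: Crh itself by 0.85 ± 0.18 (limma adjusted p = 0.00954) and Sst, which encodes somatostatin, a peptide often found beside NPY in interneurons, by 0.71 ± 0.16 (adjusted p = 0.0155). Both were kept in all 15 omissions and with median centring, and Crh also with the slide block, with which Sst did not pass (-0.51, adjusted p = 0.167). In that comparison Npy did not pass, and 4.64% of all genes tested fell. Nos1, the neuronal nitric oxide synthase, had a change of -0.32 ± 0.10 there (adjusted p = 0.0719). Set against the knockout group, active CRHR1 bulbs were lower in 2 of the 7 genes and higher in 0 (median -0.26, beside -0.07 over all genes). Sst changed by -1.02 ± 0.16 (limma adjusted p = 0.00109) and Nos1 by -0.45 ± 0.10 (adjusted p = 0.00896), where 16.3% of all genes and Npy were lower. Both calls were kept in all 15 omissions and with median centring, but not with the slide block (adjusted p = 0.164 and 0.0664).

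Microglia markers were in part higher in the active CRHR1 group, in which Npy2r was lowest. Against Cre GFP 3.89% of all genes tested rose and 4.64% fell with active CRHR1 (median change -0.07). In the knockout 1.95% rose and 1.43% fell (median change 0.0037). Of 8 microglia genes 6 rose against Cre GFP (limma, median 0.60), with the largest rise in Aif1 (1.89 ± 0.24), or 4 to 6 with 1 array left out and 4 with the slide block. With median centring Csf1r and Tmem119 did not pass (limma adjusted p = 0.141 and 0.135). Cx3cr1 (0.17 ± 0.13, adjusted p = 0.428) and P2ry12 (-0.27 ± 0.12, adjusted p = 0.166) did not rise, and P2ry12 was lower than in the knockout (-0.54 ± 0.12, adjusted p = 0.00759). In the knockout 0 of the 8 genes passed against Cre GFP (2 at an unadjusted p under 0.05, median 0.25). Their summed level was 78.9 to 118 on the active CRHR1 arrays, 55.4 to 70.3 on the Cre GFP and 61.6 to 85.7 on the knockout arrays, the last overlapping both others. Of 9 genes of granule cells and other bulb interneurons 2 fell with active CRHR1, Meis2 by 0.30 ± 0.07 and Calb2 by 0.29 ± 0.08 (median -0.25), and 0 rose. Neither passed with the slide block (adjusted p = 0.109 and 0.106) or with median centring (0.0651 and 0.0731). The Meis2 call was lost without Cre GFP array 2, 3 or 5 or active CRHR1 array 1 or 5, and the Calb2 call was kept only without knockout array 1 or 5 or Cre GFP array 1 (limma adjusted p otherwise up to 0.0730 and 0.124). Of 6 mitral and tufted cell genes 1 fell with active CRHR1, the transcription factor gene Tbr1 by 0.49 ± 0.09 (limma adjusted p = 0.00605; median -0.18), a call kept in all 15 omissions, with the slide block (adjusted p = 0.0322) and with median centring (0.0181), and 0 passed in the knockout in limma (0 at an unadjusted p under 0.05). Of 6 astrocyte genes 2 rose in the knockout against Cre GFP, Slc1a3 by 0.37 ± 0.08 and Aqp4 by 0.34 ± 0.08 (limma adjusted p = 0.0244 and 0.0416), neither of which passed with the slide block (0.0523 and 0.0594) or with median centring. With 1 array left out 0 to 2 rose and 0 to 1 fell there. Gfap, the astrocyte filament gene, had a change of -0.80 ± 0.21 in the knockout (limma adjusted p = 0.0524) and rose by 0.86 ± 0.21 with active CRHR1 (adjusted p = 0.0220). That rise passed with the slide block (adjusted p = 0.0301) but not with median centring (0.0535), nor without Cre GFP array 4 or 5 or active CRHR1 array 1 or 5. Of 6 olfactory sensory neuron genes 0 passed in the knockout in limma (1 at an unadjusted p under 0.05). With active CRHR1 1 fell, a count of 0 with the slide block, with median centring and in some omissions. Of the 6 tested genes of cortical and anterior olfactory neurons 0 passed in the knockout in limma, and 1 fell with active CRHR1 (median -0.23). That call was kept with median centring but lost with the slide block and in 5 of the 15 omissions. Between active CRHR1 and knockout 2 of the 6 were lower, beside 16.3% of all genes, and neither passed with the slide block. The part of these shifts in the Npy and Npy2r results was not tested.

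Promoter sequences were available for all 4 genes from RefSeq (GRCm38.p6). CRHR1 signals through cyclic AMP, so the 250 bases before each start were searched on both strands for the cAMP response element TGACGTCA and for its core TGACG, which the full element contains. None of the 4 promoters held either, and of 32851 promoters 1.55% held the element and 17.8% the core. The absence of these letters from this window says nothing about sites elsewhere. The last 100 bases before the Npy start (chr6:49822610-49822709, plus strand, GRCm38.p6) are shown because Npy is the member that differed at a fully measured level. The capitals mark the letters ATAAAA, like those of a core promoter box and chosen after the sequence was seen, which 17.0% of all promoters held on either strand.
Npy promoter: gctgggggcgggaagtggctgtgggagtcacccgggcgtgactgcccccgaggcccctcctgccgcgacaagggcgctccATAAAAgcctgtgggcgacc
The 250-base window before Npy had a GC content of 69.2%, against a median of 52.4% over all promoters.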

How the data were processed

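RNA of 15 mouse olfactory bulbs was measured on 1-colour Agilent arrays of 62976 spots. Per the file headers, the deposited intensity came from Agilent Feature Extraction 10.7.3.1, background-subtracted and detrended within each array, with surrogate values for dim spots and no scaling between arrays; probe coordinates are mm9. Flags were set by the same program. The authors' series intensity equals the processed signal divided by a constant for each array.

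Control and flagged spots were left out, spots of a probe averaged, and 33965 of 55681 probes kept. A gene was its kept probe with the highest mean. The 3 comparisons were fitted over all 15 arrays with limma 3.58.1 (lmFit, eBayes; R 4.3.3) and adjusted by Benjamini-Hochberg. The steps were tested on simulated data. The labels give 5 mice a group; their replicate numbers do not pair mice of different lines. Where a group had no array well above background, a fold was taken against the lowest level called well above background on its arrays. Such a fold is a guide and not a strict bound. Tables and figures were made with the R package data.table (version 1.17.8), pandas 2.3.3, matplotlib 3.10.9 and Python 3.11.15.

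Members and gene lists were chosen with earlier results of these data known. The members, list genes past the threshold (up to 4 a list, by smallest p) and the 3 genes most correlated with each member were named; other genes named were chosen after their values were seen. Alternatives were slide, replicate number, scaling, background, filter, probe choice, samples in the fit, array weights, single arrays left out and exact permutation tests. Some genes of the lists are counted but not reported here by name.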

Additional observations from a re-analysis of the deposited data

Results flagged for a closer look

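In groups of 5 arrays, 2 of 15 combinations of probe and group held an array far from the rest, and chance alone flags about 1 group in 20. Active CRHR1 array 2 had an Npy5r level of -2.51, while the other 4 active CRHR1 arrays lay between -2.97 and -2.90. Cre GFP array 2 had a level of -7.51 on Npy2r probe 2, the others lying between -8.14 and -8.00; none of these is well above background.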

How the results depend on the processing

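The Npy rise in the knockout kept its direction in 31 alternatives and lost its call in 4: on slide 1 alone (0.60), with median centring (0.47), in the authors' series values (0.47) and without knockout arrays 2 and 5, added after seeing the data (0.47). Npy2r (active CRHR1 against Cre GFP) lost its call only on its other probe (-0.11). Reversed, without a call, were Npy1r in the knockout with array weights (-0.037) and Npy5r (active CRHR1 against knockout) with slide as a fixed block (0.081) and without 1 array (range -0.14 to 0.018, the reversal without knockout array 1). Npy1r (-0.19, active CRHR1 against knockout) passed only in the exact permutation test. Keeping only probes well above background on all 5 arrays of a group, 1 array more than the rule used, or on all 15 left no Npy2r value. With the replicate number as a block no call of a member changed (Npy 0.53, adjusted p = 0.0328 in limma); same-numbered arrays did not deviate together (r from -0.22 to 0.41).

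Counts over all genes moved more. Knockout against Cre GFP gave 927, or 383 with the slide block, 115 on slide 1, 560 with the replicate block, 1406 with quantile normalization, 404 with median centring, 459 in the authors' values, 386 without a filter, 494 from the 2 groups alone, 1430 with array weights, 332 without knockout arrays 2 and 5, and 432 to 958 without 1 array (beyond 1.5 times without knockout arrays 2 and 4 and Cre GFP arrays 3 and 4). Active CRHR1 against Cre GFP gave 2339, or 1018 (slide block), 328 (slide 2), 1552 (replicate block), 1273 (median centring), 1299 (authors' values), 1246 (no filter), 5775 (array weights) and 1192 to 3671 without 1 array (beyond 1.5 times without Cre GFP arrays 1, 3 and 5 and active CRHR1 arrays 1 and 5). Active CRHR1 against knockout gave 7062, or 677 (slide block), 10678 (random slide block), 4285 (median centring), 4428 (authors' values), 3044 (without knockout arrays 2 and 5) and 4176 to 7940 without 1 array (beyond 1.5 times without knockout array 4 and active CRHR1 arrays 1 and 5). Median centring shifted all changes by -0.05, -0.10 and -0.04 in these comparisons. It also turned the split of calls, from 536 higher and 391 lower to 134 and 270, from 1066 and 1273 to 714 and 559, and from 2589 and 4473 to 2064 and 2221.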
